A study of Mus musculus and Homo sapiens with 9 samples.

Results

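Of 3410 binding sites (peaks) of thymine DNA glycosylase (TDG) in B16 mouse melanoma cells, 373 (10.9%) lay deep inside gene bodies. A peak was counted as deep when its summit, the base with the most reads, fell inside a protein-coding gene and more than 5 kb from the nearest end of any protein-coding gene, with genes from RefSeq GRCm38.p6. The rule used positions only, so the height of the peaks, the transcription starts within genes and the base composition there were free to vary. The 373 peaks lay in 324 genes, and 6 of them lay in a pair of overlapping genes.

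Sites were located by chromatin immunoprecipitation and sequencing (ChIP-seq). The TDG list came from cells of genotype Tdg HA knockin, in which TDG carries an HA tag, precipitated with the antibody HA (CST, 3724). A second list, of 126 peaks, came from Tdg HA knockin cells precipitated with p53 (CST, 2524). The labels name neither a clone nor a treatment for these B16 cells, and peak lists allow no check of the melanoma identity by marker expression. The other 7 libraries of the series, among them input, IgG and the HA antibody in untagged B16 cells, were not analysed here, so dependence of the peaks on the tag was not tested. Each list is 1 library without replicate, and no difference between peak groups could be set against replicate error. Ranges after shares and rates are 95% intervals, exact binomial or exact Poisson, and cover counting error only. The depth of the library is known only through the peaks, whose summits held 15 to 141 reads (median 22) in the deep set.

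TDG is a DNA glycosylase that starts base excision repair. It cuts thymine out of G:T mismatches and excises 5-formylcytosine and 5-carboxylcytosine, the oxidation products that TET enzymes make from methylated cytosine, mostly at CpG dinucleotides. Many mammalian promoters are rich in CpG and unmethylated. Long genes often hold further promoters inside the gene body, from which shorter transcripts begin, and also hold enhancers in their introns.

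Sequences just upstream of transcription starts inside genes show the composition of the starts that deep peaks lay beside. Each run below is the 250 bases before a RefSeq start (GRCm38.p6), written 5′ to 3′ along the transcript, with CpG dinucleotides in capitals. The first 4 belong to the strongest deep peaks at own starts that met a common definition of CpG-rich, given below (Kctd7 and Cds2 tie with Atp2c1 and Mga), and the next pair to the strongest at own starts that did not. The last is a start of Steap3 without a TDG peak, shown beside the Steap3 start that had one. The Sh2d3c start lies within 5 kb of an end of another protein-coding gene, 6330409D20Rik. Though labelled inner here, it is not among the inner starts counted below.
Ptprs inner start with a TDG peak, chr17:56462222-56462471, minus strand: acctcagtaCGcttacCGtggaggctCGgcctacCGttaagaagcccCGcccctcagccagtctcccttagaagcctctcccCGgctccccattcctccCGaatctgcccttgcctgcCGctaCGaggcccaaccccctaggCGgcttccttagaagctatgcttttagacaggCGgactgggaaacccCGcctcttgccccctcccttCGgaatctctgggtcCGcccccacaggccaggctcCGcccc
Stag1 inner start with a TDG peak, chr9:100643198-100643447, plus strand: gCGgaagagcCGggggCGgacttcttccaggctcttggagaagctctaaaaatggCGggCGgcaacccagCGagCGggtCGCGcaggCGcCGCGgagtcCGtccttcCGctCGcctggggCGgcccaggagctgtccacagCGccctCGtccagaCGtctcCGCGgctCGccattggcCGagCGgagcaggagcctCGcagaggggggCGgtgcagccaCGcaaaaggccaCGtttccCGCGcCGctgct
Atp2c1 inner start with a TDG peak, chr9:105495134-105495383, minus strand: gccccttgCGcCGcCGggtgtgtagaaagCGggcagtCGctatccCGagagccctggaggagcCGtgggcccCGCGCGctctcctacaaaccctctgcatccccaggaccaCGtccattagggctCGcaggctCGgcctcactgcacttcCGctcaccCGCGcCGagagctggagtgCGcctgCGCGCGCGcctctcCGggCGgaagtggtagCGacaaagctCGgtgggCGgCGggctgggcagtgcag
Mga inner start with a TDG peak, chr2:119896978-119897227, plus strand: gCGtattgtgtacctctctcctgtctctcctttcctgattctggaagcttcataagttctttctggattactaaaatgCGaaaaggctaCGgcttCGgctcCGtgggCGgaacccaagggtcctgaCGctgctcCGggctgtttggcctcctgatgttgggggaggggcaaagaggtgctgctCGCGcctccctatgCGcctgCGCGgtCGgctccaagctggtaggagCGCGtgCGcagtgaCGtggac
Sh2d3c inner start with a TDG peak, chr2:32727439-32727688, plus strand: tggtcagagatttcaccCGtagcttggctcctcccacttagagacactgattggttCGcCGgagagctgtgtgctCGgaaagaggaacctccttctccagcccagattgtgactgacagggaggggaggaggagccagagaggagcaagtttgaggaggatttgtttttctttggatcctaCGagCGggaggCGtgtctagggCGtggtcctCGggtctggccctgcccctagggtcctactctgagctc
Steap3 inner start with a TDG peak, chr1:120265287-120265536, minus strand: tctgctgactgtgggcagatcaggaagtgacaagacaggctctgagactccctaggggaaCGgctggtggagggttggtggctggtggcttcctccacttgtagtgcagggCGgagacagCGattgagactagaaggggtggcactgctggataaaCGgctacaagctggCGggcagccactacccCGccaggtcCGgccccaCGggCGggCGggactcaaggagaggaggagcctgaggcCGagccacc
Steap3 inner start without a TDG peak, chr1:120258879-120259128, minus strand: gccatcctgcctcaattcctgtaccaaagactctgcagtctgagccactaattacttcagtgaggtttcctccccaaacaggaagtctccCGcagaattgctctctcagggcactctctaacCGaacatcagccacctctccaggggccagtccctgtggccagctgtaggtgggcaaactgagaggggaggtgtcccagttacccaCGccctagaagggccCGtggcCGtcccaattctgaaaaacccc
The summits of Stag1 and Sh2d3c lay inside these runs, 11 and 126 bases upstream of the start. Those of Mga, Atp2c1 and Steap3 lay outside, 181, 38 and 29 bases downstream of the start. The Ptprs summit also lay outside its run, 282 bases upstream of the start. The Ptprs, Stag1, Atp2c1 and Mga runs held 15, 31, 28 and 18 CpGs. The Sh2d3c run held 9 CpGs and the bound Steap3 run 11. The Steap3 run without a peak held 5.

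Deep TDG peaks fell at transcription starts inside genes far more often than the small share of deep sequence near starts. In 124 of 373 deep peaks (33.2%, 28.5 to 38.3) the summit lay within 1 kb of a listed RefSeq start, while 0.886% of the sequence where a deep summit could fall lies that close. Within 500 bases there were 117 (31.4%), against 0.454% of the sequence. The nearest start belonged to the host gene itself in 110 peaks (29.5%) and to another gene in 14 (3.75%), of which 4 also had a start of the host within 1 kb. Starts are listed for 79.9% of protein-coding genes and for none on chromosome 18. Among the 314 deep peaks whose host is listed, 121 (38.5%, 33.1 to 44.2) were at a start.

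At the host's own starts the summits were centred on the start. The median summit lay 14 bases upstream, the middle 50% lay between 124 bases upstream and 88 downstream, and 89 of 110 were within 300 bases. At Iqsec1, which encodes an exchange factor for ARF GTPases, the summit was 2 bases from the start. Of the 110 peaks, 54 (49.1%) sat at the most upstream start listed for the gene and 56 (50.9%) downstream of another listed start. Gene extents also cover transcript models without a listed start, so the most upstream listed start can itself lie deep inside the gene.

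**Figure D1:**
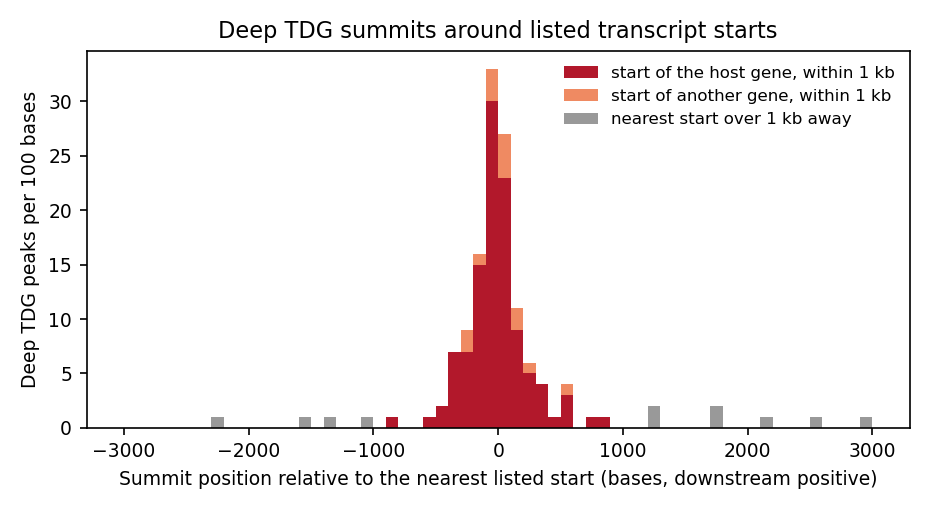
Deep TDG peaks per 100 bases (vertical axis) by the position of the summit relative to the nearest listed start in bases, downstream positive (horizontal axis), with colours for starts of the host, starts of another gene and starts over 1 kb away. The peaks gather at the start itself, with 102 of 373 within 300 bases.

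Some deep peaks lay near noncoding genes. Both peaks of Tet3, which encodes a dioxygenase that makes the oxidised cytosines TDG removes, lay near the long noncoding RNA gene B230319C09Rik. One with 5.77-fold enrichment was 122 bases from its start and 199 bases from a start of Tet3 itself, and one with 7.09-fold was 1793 bases from the noncoding start. Pdpk1, the kinase that activates AKT, had a 5.79-fold peak 85 bases from the start of Gm33409 and 116 bases from one of its own. In all, 33 deep peaks (8.85%, 6.17 to 12.2) were within 1 kb of an end of a noncoding gene, against 2.05% of the sequence, and 25 of the 33 were also at a listed start.

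Peaks nearer to gene ends were at starts more often, and peaks between genes less often. Of 331 TDG peaks in gene bodies but 1 to 5 kb from an end, 188 (56.8%, 51.3 to 62.2) were at a start. Of 308 peaks between genes and more than 5 kb from any protein-coding gene, 44 (14.3%, 10.6 to 18.7) were. The definitions partly set this order, because a peak so far from genes cannot lie within 1 kb of a start inside a protein-coding gene. Among deep peaks the start of a gene other than the host was nearest in 3.75%. The share of sequence near starts is not given for these other classes. Deep gene bodies held 0.436 TDG peaks per Mb (0.393 to 0.483) and the distant intergenic sequence 0.204 (0.182 to 0.228), a ratio of 2.14 (1.83 to 2.49). The higher density did not hold in genes with more than 200 kb of deep sequence (396 Mb), which had 0.152 per Mb (0.116 to 0.195). Assembly gaps were not taken out of either length.

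The starts inside genes that carried TDG were mostly CpG-rich. RefSeq lists 2151 starts of protein-coding genes that lie inside their own gene body and more than 5 kb from any protein-coding gene end, called inner starts here, and 135 of them (6.28%), in 114 genes, had a TDG summit within 1 kb. The nearest peak was a deep one for 133 of the 135. For 65 of the 114 genes no start within 1 kb of a gene end is listed. Inner therefore describes position in the annotated gene, and whether these are alternative promoters was not tested. A start was called CpG-rich when the 300 bases from 250 before to 50 after it had at least 50% GC and a ratio of observed to expected CpG of at least 0.6. TDG was found at 92 of 521 CpG-rich inner starts (17.7%, 14.5 to 21.2) and at 43 of 1630 others (2.64%, 1.92 to 3.54). The intervals do not overlap, also without chromosomes 6 and 11, where the shares were 14.5% and 2.11%. They count each start separately, although neighbouring starts of a gene can share 1 peak, and so are too narrow.

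Composition shows the same separation as a continuous measure. Inner starts with TDG had a median GC content of 64.0% and a median ratio of observed to expected CpG of 0.732 (quartiles 0.569 and 0.881), with 23 CpGs in 300 bases. Inner starts without TDG had 52.3%, 0.311 (0.185 and 0.573) and 6 CpGs. Stag1, a cohesin subunit, had 43 CpGs in its 300 bases, and Nr4a1, an immediate early nuclear receptor named here after its values were seen, had 35. At the other extreme 1 inner start of Lmna, which encodes the lamins of the nuclear envelope, had 1 CpG and a TDG summit 5 bases away. CpG-rich starts made up 68.1% (59.6 to 75.9) of inner starts with TDG and 21.3% of those without.

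**Figure D2:**
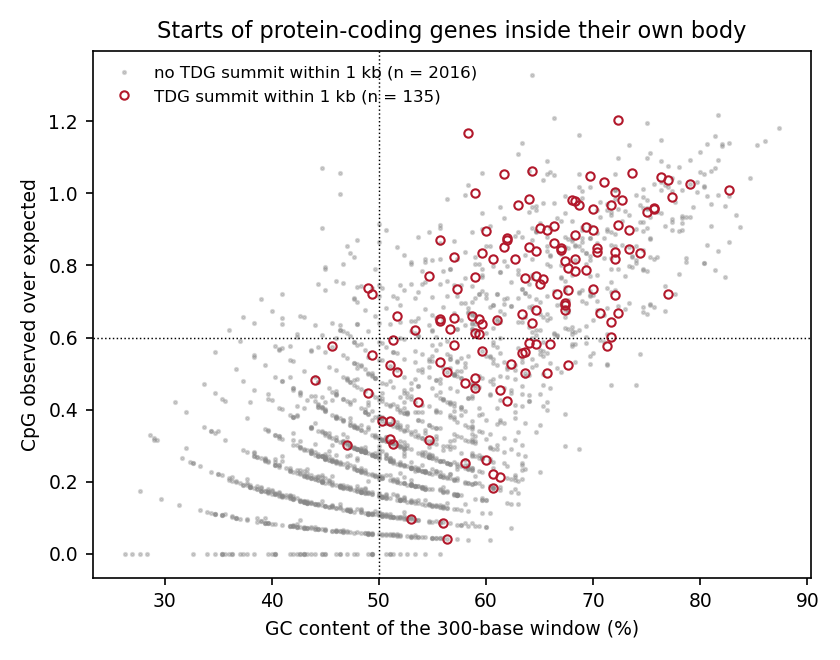
GC content in percent (horizontal axis) and ratio of observed to expected CpG (vertical axis) in 300 bases around each inner start, with open circles for starts with a TDG summit within 1 kb, grey points for the others and dotted lines at the limits for CpG-rich. The 135 starts with TDG sit towards high CpG ratios, with a median of 0.732 against 0.311 for the 2016 without.

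The split by CpG content was not particular to starts inside genes. At 17382 outer starts, those within 1 kb of a protein-coding gene end, TDG was at 2430 (14.0%). The share was 24.8% (23.9 to 25.7) at CpG-rich and 4.05% at other outer starts. CpG-rich inner starts thus had TDG less often than CpG-rich outer starts, 17.7% against 24.8%. The intervals do not overlap, but they are too narrow, because starts that share a peak were counted separately. Of the inner starts, those that were the most upstream listed for their gene had TDG in 20.4% (41) of CpG-rich cases, and those downstream of another listed start in 51 of 320 (15.9%).

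Comparing starts of one gene gave the same direction in most cases. In 17 of the 114 genes an inner start with TDG could be set beside an inner start without it, and the CpG ratio was higher at the start with TDG in 15 of 17. Stat5b, a transcription factor of cytokine signalling, had 1.01 against 0.421. Magi2, a scaffold protein of cell junctions, had 0.907 against 0.291, at starts 680472 bases apart. Dst, which encodes the cytoskeletal linker dystonin, had 0.836 against 0.378. Steap3, a metalloreductase of iron uptake, had 0.502 against 0.298, the pair of runs printed above. The exceptions were Apc2, at 0.0960 against 0.385, and Myo18a, at 0.181 against 0.216. These genes were named after their values were seen.

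Outer starts of the same genes had TDG about as often as other outer starts. Of the 114 genes, 49 list an outer start, and 8 of those 49 (16.3%, 7.32 to 29.7) had TDG there too. Among 781 genes with inner starts but no TDG at any of them, the outer start had TDG in 106 (13.6%, 11.2 to 16.2), so the intervals overlap. The outer start was CpG-rich in 20 of 49 (40.8%) and in 437 of 781 (56.0%). The other 65 genes list no outer start.

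Short motifs were counted in the same 300 bases on both strands, as a description. The E-box CACGTG was in 12 of 135 inner starts with TDG (8.89%, 4.68 to 15), in 4.91% of those without and in 7.15% of all 32851 listed starts. The letters CATGTG, the M-box that MITF can bind, were in 8 of 135 (5.93%, 2.59 to 11.3), in 14.7% and in 14.2%. Among CpG-rich inner starts alone CATGTG was in 5.43% with and 5.13% without TDG, and CACGTG in 9.78% and 7.23%. The AP-1 letters TGANTCA were in 4.44%, 9.08% and 7.81% of the 3 sets. The CRE (TGACGTCA) letters and the NRF1 site were each in 0.741% of inner starts with TDG, against 1.79% and 0.971% of all starts. The ETS letters CCGGAAGT were in 3.70% against 3.89% of all starts, and the p53 decamer in 7.41% against 8.36%. A window holding a motif more than once was counted once.

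Deep peaks were somewhat weaker than peaks at gene ends. Their median fold enrichment, the authors' value at the summit over the local background, was 5.47 (quartiles 4.85 and 6.26, range 3.37 to 10.4). The 2290 peaks within 1 kb of a gene end had 5.99 (5.14 and 6.94), so the deep median was lower by 0.519, or 2 reads at the summit (medians of 22 and 24). Among peaks with a −log10 q of at least 5 the difference was -0.291. Distant intergenic peaks had 5.72. Of the deep peaks 39.9% were in the upper 50% of the TDG list, against 53.4% of gene-end peaks. The values come in steps, since 187 of 373 deep peaks (50.1%) had the genome-wide background and 1 read then moved the fold by 0.26. Peaks at a start (5.52) and away from starts (5.36) differed by 0.155, with an interval from order statistics of -0.260 to 0.579, and by 0.352 when a start had to lie within 500 bases.

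**Figure D3:**
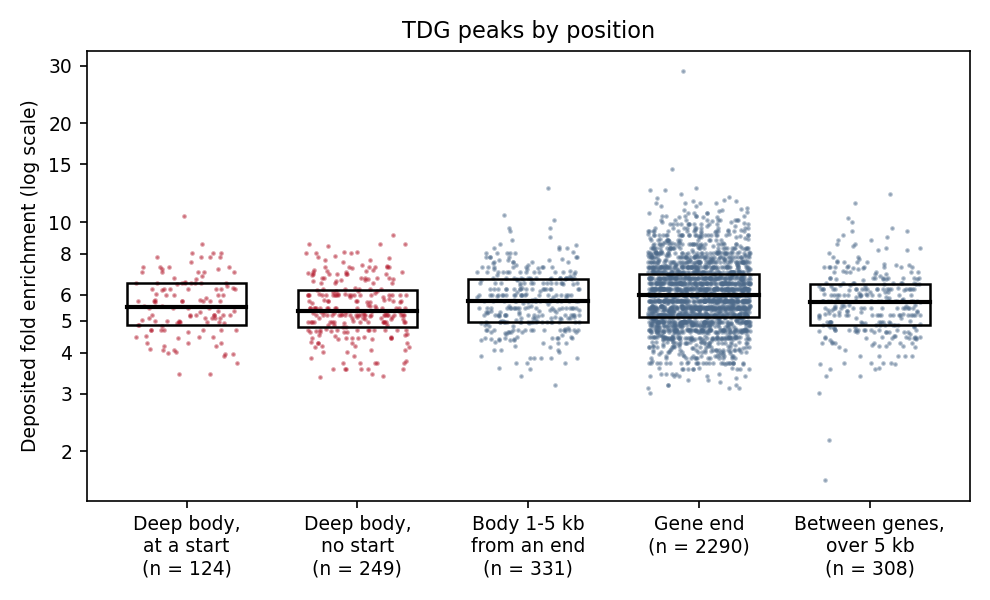
Deposited fold enrichment of single TDG peaks (points, log axis) by the position of the summit, with boxes from the lower to the upper quartile and a bar at the median; deep peaks are split by a start within 1 kb. The deep groups have medians of 5.52 and 5.36 and the gene-end peaks 5.99, with wide overlap between them.

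The strongest deep peak was in Ptprs, a receptor tyrosine phosphatase that binds proteoglycans, at 10.4-fold with 44 reads (chr17:56461826-56462941). It was 1116 bases wide and its summit lay 282 bases upstream of the inner start whose sequence is printed above. Efr3b, which helps anchor a phosphatidylinositol kinase at the plasma membrane, followed with 9.11-fold and 34 reads. Srl, Sh2d3c, Tnip1 and Padi2 had 8.59-fold each, that is 32 reads over the genome-wide background. Sh2d3c is an adaptor of integrin and kinase signalling, Tnip1 a restraint on NF-kappaB signalling, and Padi2 an enzyme that turns arginine in proteins to citrulline. The Padi2 peak was the widest of all deep peaks at 1555 bases, against a median of 383. The next widest were in Plec (1534 bases), which encodes the linker plectin, and Rarg (1119), a retinoic acid receptor.

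Below these came Sfxn5, a mitochondrial carrier, at 8.43-fold and the tetraspanin Cd9 at 8.10. Plxna1, a semaphorin receptor, had 2 peaks at 8.14 and 8.05. Bdh1, a ketone body enzyme, Tfeb, the master regulator of lysosomal genes, Stag1, Amotl2, an angiomotin of the Hippo pathway, and Steap3 had 8.07 each. Nrp2, a co-receptor for semaphorins and VEGF, had 7.87. Arhgef2, Atp2c1, Mga and Kctd7 had 7.81, which was also the value of Cds2, a lipid synthesis enzyme. Among these peaks of at least 7.81-fold, those of Ptprs, Sh2d3c, Stag1, Steap3, Atp2c1, Mga, Kctd7 and Cds2 lay nearest to an own start within 1 kb.

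The remaining 249 deep peaks (66.8%) were more than 1 kb from any listed start, 241 of them also from the ends of noncoding genes. Their host genes had a median length of 79.8 kb, and the summits lay a median of 19958 bases from the nearest gene end. The rule itself favours long genes, since a summit must lie more than 5 kb from every end. Per Mb of deep sequence such peaks were fewest in the longest genes, as given below. Deep peaks as a whole lay 16.2 kb from an end (quartiles 8.63 and 33.4), and the farthest were in Robo1 (384 kb), Ptprm (278 kb), Syne1 (261 kb), Agap1 (189 kb) and Dlgap1 (188 kb). Of these 5 the Robo1 peak was at an own CpG-rich start, 150 bases away, and the other 4 were away from starts. Robo1 is the receptor of the guidance cue SLIT and Ptprm a receptor phosphatase of cell contacts. At the 5 kb limit the nearest peaks inside were in Cdh23 (5047 bases, 5.21-fold), Sh2d3c (5057, 8.59) and Srf (5075, 6.11). Just outside it lay peaks in Plcd1 (4930 bases, 7.81-fold) and 3110082I17Rik (4902, 4.87).

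Deep peaks lay towards the 5′ side of their hosts, and peaks at starts more so than the others. Of 314 peaks in hosts of known strand, 64.0% (58.4 to 69.3) lay in the upstream 50% of the sequence that could hold them. At starts this was 93 of 121 (76.9%), and away from starts 108 of 193 (56.0%, 48.7 to 63.1), an interval that includes 50%. Mitf, the master regulator of melanocytes, was an example of the other kind: its 7.16-fold peak lay 175 kb from the upstream end, 10018 bases before the nearest listed Mitf start.

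Deep peaks recurred in a small set of genes. Of 324 hosts 40 held at least 2 and 11 held at least 3. Lmna held 4, at 7.19, 7.03, 5.70 and 4.27-fold, and 2 of them were at its own starts. Vgll4, a cofactor of TEAD factors, held 4 peaks between 4.45 and 6.02-fold over 47.0 kb, none at a start. Plec held 4 between 3.57 and 5.47-fold within 11.8 kb, and Cuedc1 4 between 4.27 and 5.47-fold. Those with 3 were Arhgef10l, Bcas3, Coa8, Mical3, Nrp2, Spen and Tns3. In 16 of the 40 genes 2 summits lay within 5 kb of each other, and 29 of the 40 had no TDG peak at their own ends. The lack of an end peak was not particular to these genes, since only 63 of all 324 hosts (19.4%) had one. Across all deep peaks 36 (9.65%) had another TDG summit within 5 kb, near the 10.2% of all placed TDG peaks.

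Hosts had a TDG peak at their own ends about as often as other genes of their chromosomes. A peak within 1 kb of an own end was seen in 63 of 324 hosts (19.4%, 15.3 to 24.2), against 14.3% of all 13809 genes with sequence deep enough to be counted. Other genes weighted to the hosts' chromosomes gave 19.6%.

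Of those 13809 genes 2.35% (324) were hosts, the background for the gene groups that follow. The groups were chosen with earlier results of these data known. Each count is of hosts among the group's genes long enough to hold a deep peak, and the groups differ in gene length.

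Genes of the Hippo pathway, which controls organ size through YAP and TEAD, held deep peaks in 3 of 26 (11.5%, 2.45 to 30.2). These were Amotl2 (8.07-fold), Vgll4 and Tead4 (4.19), and per Mb of deep sequence the group had 2.81 peaks. Vgll4 alone held 4 of the group's 6 peaks, and without it the density was 0.981 per Mb (0.119 to 3.54). Wnt genes had 3 of 29 (10.3%), in Axin1, a scaffold of the beta-catenin destruction complex (5.56), Tcf7l1 (5.21) and Prickle2 (3.44). TGF-beta and BMP genes had 1 of 26 (3.85%), the type I receptor gene Acvr1b (4.18). Receptor tyrosine kinase and RAS-MAPK genes had 2 of 45 (4.44%), Ralgds (5.21) and the collagen receptor Ddr1 (3.55).

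Adhesion and actin genes had 5 of 54 (9.26%, 3.08 to 20.3), in Dst and Myo10 (6.25 each), the integrin Itgb5 (5.99), Plec and Tns3 (5.47 each). Vesicle traffic and phosphoinositide genes had 3 of 58 (5.17%), Agap1 (6.77), Inpp4a (6.23) and Rabgap1 (4.70).

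Genes of the melanocyte lineage had 3 of 23 (13.0%, 2.78 to 33.6). They were Mitf, the melanocyte and neural crest factor Tfap2a (4.95) and Rab27a, which carries melanosomes (4.70, at its own start). Long transcription factor genes had 6 of 76 (7.89%, 2.95 to 16.4), with Foxk1 and the retinoic acid receptor Rara at 6.25, Ets1 at 5.99 and Nfatc2 at 5.73. Genes known for internal promoters had 8 of 50 (16%, 7.17 to 29.1), led by Arhgef10l, Mitf, Agap1 and Myo18a (6.51). Of their 16 deep peaks 2 were at a listed start, those of Dst and Myo18a. No starts are listed in the stretch around Plec, so its 4 peaks could not be counted at a start.

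Base excision repair and DNA demethylation, TDG's own pathway, had 2 of 21 (9.52%, 1.17 to 30.4), namely Tet3 and the methyltransferase gene Dnmt3a (5.99). Strand break and other repair genes had 0 of 52, which allows a share of up to 5.77% when the limit of a count of 0 is set at 3 counts (exact upper bound 6.85%). Direct p53 targets had 0 of 26, which allows up to 11.5% (exact 13.2%). These limits are above 2.35%, so no difference from the other genes was detectable. Chromatin regulators had 4 of 54 (7.41%, 2.06 to 17.9), with the histone methyltransferase family gene Setd5 (7.29), the histone deacetylase gene Hdac4 (5.09) and the chromatin remodelling gene Arid1b (3.71) among them. Ubiquitin ligases and deubiquitinases had 2 of 56 (3.57%), with Trim24 at 5.93.

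The very long neuronal and fragile-site genes had few deep peaks per base. They had 2 of 55 hosts (3.64%) but 0.0297 peaks per Mb over 67.5 Mb of deep sequence, against 0.436 over all genes. Both were at CpG-rich own starts, in Robo1 (5.70) and Magi2 (5.21). The group's density interval was 0.00359 to 0.107, and its genes had a median of 1126 kb of deep sequence. All genes with more than 200 kb had 0.152 per Mb (0.116 to 0.195) and 5.57% hosts, so much of the gap to 0.436 is shared by long genes.

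The groups' genes differ in length, so shares and densities can order them differently. The interval of the share lay above 2.35% for the internal promoter, adhesion, long transcription factor, melanocyte and Hippo groups. Per Mb of deep sequence the whole set of genes had 0.436. The interval lay above that for Hippo (from 1.03), base excision repair (from 0.853), adhesion (from 0.553) and melanocyte genes (from 0.445). It included 0.436 for internal promoter genes, at 0.686 (0.392 to 1.11), and for long transcription factors, at 0.544 (0.261 to 1.00). Single genes set these bounds. Each of these groups was also counted without a host with the most peaks (Vgll4, Tet3, Plec and Mitf). Mitf was tied with Tfap2a and Rab27a at 1 peak each. The density intervals of the Hippo, base excision repair, adhesion and melanocyte groups then began at 0.119, 0.0395, 0.255 and 0.204 per Mb and included 0.436. The share intervals of the Hippo, melanocyte, adhesion and long transcription factor groups then began at 0.984%, 1.12%, 2.09% and 2.20% and included 2.35%. Ets1, tied with Foxk1, Rara and Nfatc2 at 2 peaks each, was left out of the last. The share interval of the internal promoter group began at 5.94% without Plec. However, 2.35% is the share over genes with a median of 22.8 kb of deep sequence. The internal promoter group had a median of 323 kb, the long transcription factors 160 kb and the adhesion group 108 kb. Of all genes with more than 200 kb, 5.57% (4.18 to 7.26) were hosts, and of those with 100 to 200 kb 4.15%. Chromosome also differs between the groups. Vgll4, Tead4, Tet3 and Mitf all lie on chromosome 6, where all genes together had 1.21 deep peaks per Mb (0.934 to 1.55). No group was compared with genes of equal length or of the same chromosomes.

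Density of deep peaks fell with gene length, although the share of genes hit rose. Genes with up to 10 kb of deep sequence had a deep peak in 0.639% and 1.41 peaks per Mb. Those with 50 to 100 kb had 4.02% and 0.689 per Mb, and those above 200 kb 5.57% (51 of 915) and 0.152 per Mb (0.116 to 0.195). Counting only peaks away from starts, the density was 0.566 per Mb in the shortest group, 0.831 from 10 to 25 kb and 0.119 above 200 kb.

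**Figure D4:**
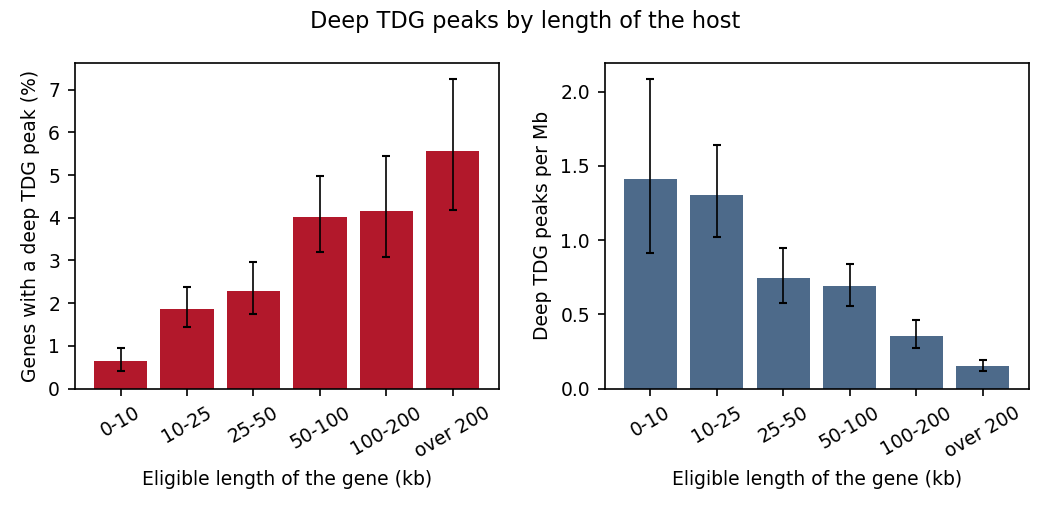
Deep TDG peaks by the length of deep sequence in the host gene: the share of genes with a peak and the peaks per Mb, with 95% intervals. The share rises to 5.57% while the density falls to 0.152 per Mb in the longest genes.

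Chromosomes 11 and 6 carried 58 and 64 deep peaks, 1.34 per Mb (1.02 to 1.74) and 1.21 per Mb (0.934 to 1.55). Together they held 122 of 373 (32.7%) on 11.2% of the deep sequence. Chromosomes 17 and 15 followed with 0.824 and 0.749 per Mb. Chromosomes 8 and 18 had 0.117 and 0.106, and chromosomes 14 and X had no deep peak in 39.7 and 38.2 Mb, which at 3 counts allows up to 0.0756 and 0.0785 per Mb. Peaks at gene ends varied in broadly the same way, with 23.4 per 100 genes on chromosome 6, 16.5 on 11, 2.35 on 14 and 0.104 on X. The order differed in part. Chromosomes 12, 15 and 16 had more gene-end peaks per 100 genes than 11 (20.9, 20.2 and 19.9) but fewer deep peaks per Mb (0.590, 0.749 and 0.592). Both counts come from 1 library and share its depth. The share of deep peaks at a start was 25% on chromosome 6 and 24.1% on 11. Chromosome copy number in B16 was not analysed here.

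**Figure D5:**
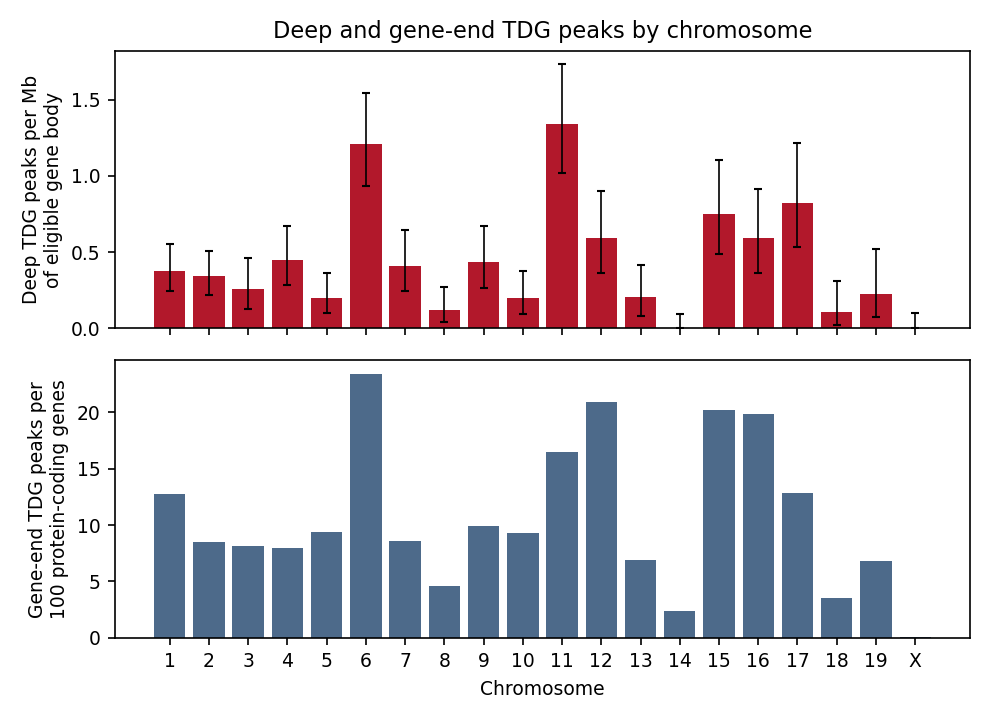
Deep TDG peaks per Mb of deep sequence on each chromosome, with 95% intervals, beside TDG peaks at gene ends per 100 genes. Chromosomes 11 and 6 are highest for deep peaks, at 1.34 and 1.21 per Mb, and 14 and X have none.

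Of the deep peaks 2 (0.536%, 0.0650 to 1.92) overlapped a p53 peak, against 15 of all 3410 TDG peaks (0.440%), and both lay in regions of high local background. The Zc3h7a peak had 3.37-fold TDG enrichment and 9.12-fold p53 enrichment with summits 2 bases apart and a background of 38 reads. The peak shared by the overlapping genes Cmss1 and Filip1l had 3.73 and 7.23-fold, 17 bases apart, with 32 reads. They were the only 2 deep peaks with a background of at least 10 reads. Of the 126 p53 peaks 31 met the same positional rule, and 6 genes held a deep peak of each kind. Among these 6 are Zc3h7a, Cmss1 and Filip1l, the genes of the 2 overlaps, and Cmss1 and Filip1l share 1 peak of each kind. Of all eligible genes 2.35% held a deep TDG peak. The share among genes with a deep p53 peak is not given here. In Lmna the p53 peak was 18.9-fold and 2197 bases from the nearest deep TDG summit, in Arhgef10l it was 14.6-fold and 69153 bases away, and in Gphn 8.92-fold and 124646 bases away.

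MicroRNA genes lay within 1 kb of 2 deep peaks. Mir7240 was 717 bases from a 5.16-fold peak in Mast3, a protein kinase gene.

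Mir6976 (chr17:46553827-46553889) was 635 bases from the 6.11-fold peak in Srf, the serum response factor. Its mature sequences are given with bases 2 to 8, the seed, in capitals, and the seeds differ.
mmu-miR-6976-5p: cAGGGAAGuugagaggaaaauug
mmu-miR-6976-3p: aUCUCCCUcccaacuccccag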

How the data were processed

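ChIP-seq peak lists of the HA antibody (3410 peaks) and the p53 antibody (126 peaks) in Tdg HA knockin B16 cells were used. Per the submitters' processing notes, Trim Galore, Bowtie2, Picard, deepTools, MACS2, ChIPseeker and mm10 are named, without versions, roles or order. The calling threshold, the software releases and which library served as control were not given in the sources used here. For each peak the authors deposited a fold (ratio) over local background, −log10 p and −log10 q values of the summit, a score equal to 10 times the −log10 q, truncated, for all 3410 TDG peaks, and positions. The lowest deposited −log10 q was 3.02. MACS2 adds a constant to both terms of its fold, which therefore understates the ratio of reads. Fold values were used only within a list. Reads and background at each summit were recovered from the deposited fold and −log10 p as whole reads scaled by 0.924, within 0.001 for 99.9% of peaks. A caller that takes its background from a control raises or lowers every fold with that control.

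Genes (21887 protein-coding on placed chromosomes, 28056 noncoding) and 32851 transcription starts with sequence came from RefSeq GRCm38.p6, the assembly that mm10 is based on. No genome was used, so CpG content and motifs were read only in the 300 bases at listed starts, and exon or intron position was not analysed. A gene was eligible if it held sequence more than 5 kb from every protein-coding end (13809 genes, 855 Mb). Peaks overlapped when they shared at least 1 base. Gene names were matched by symbol, with 1 of 55 adhesion names unmatched and the other 15 lists matched in full.

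The members, the 16 gene lists and the alternatives were chosen with earlier results of these data known. Genes named by rule were hosts of the 20 highest deep peaks, of p53 overlaps, of 3 or more deep peaks, up to 4 hosts per list, the 5 farthest from ends, the 3 nearest each side of the limit, the 3 widest, and those near microRNAs. Ties in rank were named too. Some names and the result of 1 list are not reported here. Other names were chosen after their values were seen. With 1 library per antibody no test between samples was possible. Alternatives were other distance limits, stricter peaks, other peak positions, all gene ends, and leaving out chromosomes or high background. Those on starts and chromosomes, and leaving out a host with the most peaks in a list, were chosen after seeing the data. Scripts used Python 3.11.15, pandas 2.3.3 and scipy 1.17.1 and were tested on simulated data.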

Additional observations from a re-analysis of the deposited data

How the results depend on the processing

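Of 74 alternative values, 63 stayed within the interval of the reported one (counts within 1.5 times), 11 moved and 0 changed direction. Within the intervals, the deep minus gene-end median fold went from -0.519 to -0.291 at a −log10 q of at least 5. The difference between deep peaks at and away from starts went from 0.155 to 0.352 with a 500-base window and to 0.260 with a 10 kb limit. Keeping only peaks at or above the median fold of the TDG list left 149 deep peaks, 1.01% of eligible genes as hosts, 10 genes with at least 2 deep peaks and 0 overlaps with p53. A −log10 q of at least 5 raised the median deep fold to 5.73 and gave 1.98% of eligible genes. Using the ends of all annotated genes gave 2.01% of eligible genes and a density ratio of 2.98 between deep and intergenic sequence. With a 10 kb limit 26.0% of deep peaks were at a listed start and 1 overlapped a p53 peak. Without peaks of high background 0 overlapped one. By construction the stricter lists hold fewer peaks; the cause of the other shifts was not tested.

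No paired analysis was possible because each group held 1 library. Depth limits the fold values, which move in steps of 1 read, and a gene or motif at 0 is limited by its number of genes or Mb. Starts are listed for 79.9% of protein-coding genes, so counts of peaks at starts cover listed starts only.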

Other observations

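Several further hosts belong to nuclear receptor and retinoid genes, named here after their values were seen. Rara, a retinoic acid receptor, had deep peaks of 6.25 and 4.41-fold, and Rarg 5.56 and 5.21-fold. Cyp26b1, which breaks down retinoic acid, had 6.94 and 5.66-fold. Among other nuclear receptors Ppard had 7.03 and 5.99-fold, Nr3c1, the glucocorticoid receptor, 5.47-fold and Nr4a2 4.95-fold. The Nr4a1 peak, at 6.70-fold, lay 16 bases from an own CpG-rich start, and that of Rarg at 5.56-fold lay 599 bases from an own start that was not CpG-rich.

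Genes of Notch signalling, also named after their values were seen, included Notch2, a receptor, at 5.99-fold and Rbpj, the DNA-binding factor of the pathway, at 4.27-fold, 51 bases from an own CpG-rich start. Spen, a corepressor that binds RBPJ, had 3 peaks of 5.36, 5.29 and 4.51-fold, none at a listed start. Among guidance genes Sema6b, a semaphorin, had a 3.96-fold peak 411 bases from an own start, beside the peaks of Plxna1, Nrp2 and Robo1. No list of these genes was compared with the rest.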
